A study of Mus musculus with 10 samples.

Results

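The genes described here are those of the mouse major histocompatibility complex (MHC, called H2 in the mouse) and of the machinery that loads peptides onto its products. They were taken by symbol: every protein-coding gene whose symbol starts with H2, which gave 34 genes, plus 13 genes named one by one (B2m, Tap1, Tap2, Tapbp, Tapbpl, Psmb8, Psmb9, Psmb10, Nlrc5, Ciita, Cd74, Erap1 and Cd1d1). That made 47 genes of the 55385 listed, 39 of them on chromosome 17. The rule itself used no measured value, but earlier results of these data were known when it was set. Another 11 H2 genes annotated as pseudogenes were left out. By role, 34 genes belong to the class I branch, 11 to the class II branch and 2 to neither, namely Cd1d1, which presents lipids, and H2-Ke6, which lies in the complex but encodes a steroid dehydrogenase.

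MHC class I molecules show peptides from proteins made inside the cell to CD8 T cells. A heavy chain pairs with beta-2-microglobulin, and its peptides are cut by the proteasome, pumped into the endoplasmic reticulum by TAP and fitted with the help of tapasin. NLRC5 is a transactivator of class I genes. Class II molecules show peptides from proteins taken up from outside to CD4 T cells, are assembled on the invariant chain CD74, and depend on the transactivator CIITA. Liver sinusoidal endothelial cells are known to take up and present antigen, and Kupffer cells and dendritic cells of the same organ carry much class II.

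RNA of CD146-bead-captured liver endothelial cells was sequenced in 5 libraries labelled Alk1-HEC-KO (genotype KO) and 5 libraries labelled Control (genotype WT), to compare cells with a knocked-out Alk1 gene with wild-type cells. Alk1, officially Acvrl1, encodes an endothelial receptor for BMP9 and BMP10. Not given in the sources used here are the strain, age and sex of the mice, the Cre line or promoter, the deleted exons and whether each library had its own animal, so the spread behind each p-value may be technical. Acvrl1 went against its label, with 239, 246, 250.2, 258 and 245 CPM (counts scaled to a common library size, corrected for composition) in the libraries labelled Alk1-HEC-KO 1 to 5, against 124, 125, 136, 114 and 135 CPM in controls 1 to 5 (log2 fold change 0.96 ± 0.05 SE, edgeR adjusted p = 1.74e-07). Counts summed per gene cannot tell which exons were read, and the first group is therefore called the knockout-labelled libraries throughout. Depth was nearly equal, 23489494 to 23602771 estimated counts per library. Endothelial markers were abundant in both groups (Pecam1 at 1724 ± 65.4 CPM in knockout-labelled libraries and 1464 ± 93.9 CPM in controls; SD, n = 5 each), although 5 of the 10 endothelial markers fell and 2 rose. Pecam1 was 1 of the 2 that rose. The 10 endothelial markers summed to 14410 to 15520 CPM in knockout-labelled libraries and 16970 to 19300 CPM in controls, with no overlap. This sum does not stand for the list. Its largest member, Clec4g, averaged 3067 CPM in knockout-labelled libraries and 4760 CPM in controls. In every knockout-labelled library 3 markers (Pecam1, Cdh5 and Tie1) lay above all controls, and 5 lay below all controls. At an adjusted p under 0.05, 70.0% of the 10 passed, against 19.7% of all genes tested. In bulk RNA, fewer cells of a type and less RNA per cell cannot be told apart.

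A pair of neighbouring class Ib heavy chain genes, an immunoproteasome subunit and a peptide editor were higher in knockout-labelled libraries than in controls, by 1.17- to 1.32-fold, and the class Ib gene H2-T23 was 1.24-fold lower. Enough counts for a test were present for 35 of the 47 genes. At an adjusted p under 0.05, H2-Q6, H2-Q7, Psmb8 and Tapbpl (4 genes) rose, H2-T23 (1 gene) fell and the remaining 30 missed the threshold. The called share of the 35 was 14.3%, below the 19.7% of all 15043 genes tested (10.6% that rose and 9.08% that fell), so the number of calls does not set antigen presentation genes apart. The median log2 fold change of the 35 genes was 0.05, and that of all genes tested was 0.00 to the same precision. Every call lay in the class I branch: 22 of its genes were tested and 17 of those missed the threshold, with a median log2 fold change of 0.15. Its called share, 22.7%, was near the 19.7% of all genes tested. Of the 11 tested genes of the class II branch none passed with edgeR, DESeq2 or limma, 1 had an unadjusted edgeR p under 0.05, and the median was -0.02. The SE in the class II branch ran from 0.15 (Ciita) to 0.35 (H2-Eb2), against 0.06 (Tapbpl) to 0.11 (H2-Q6) among the 5 called genes. Differences of the called size were therefore less likely to pass in class II. Whether the branches differ was not tested, because the genes of a branch are not independent replicates. All 5 knockout-labelled libraries lay above all controls for 1 gene, Ciita, which did not pass the test, and below all controls for 1 gene, H2-T23. Over all genes tested the corresponding shares were 8.4% and 7.05%.

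**Figure D1:**
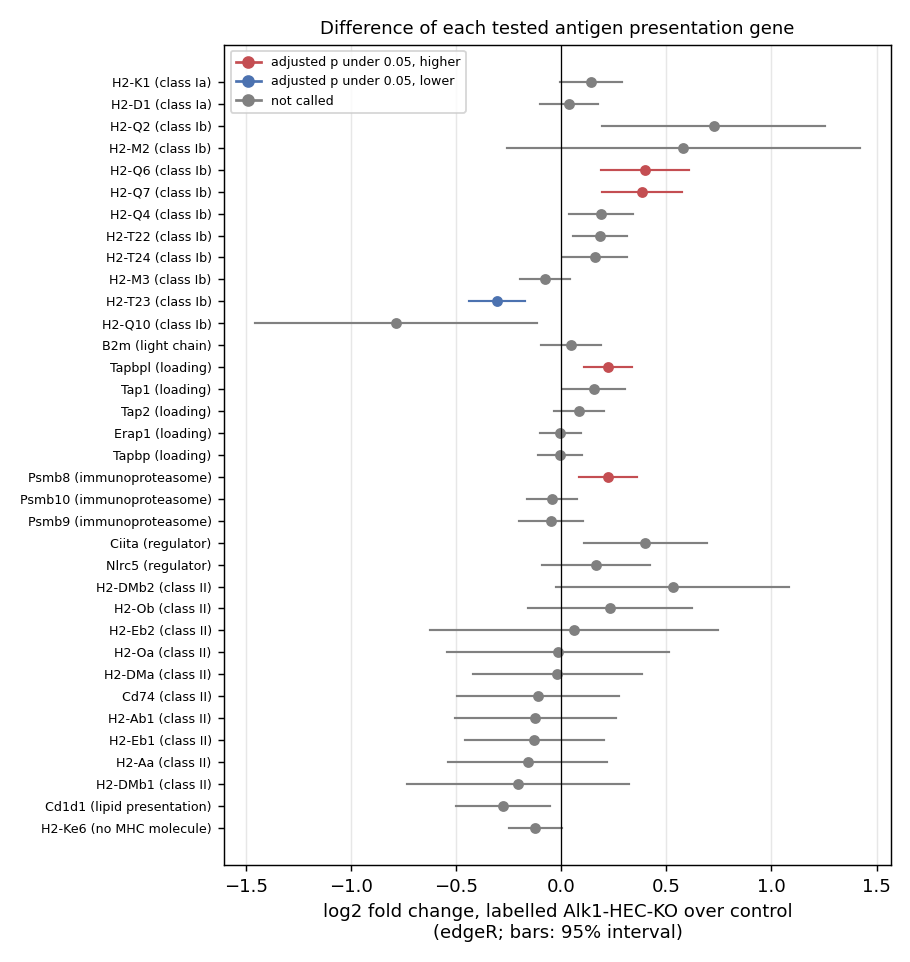
Log2 fold change of each of the 35 tested antigen presentation genes, knockout-labelled libraries over controls (horizontal axis; n = 5 each), ordered by role. Points are edgeR estimates and bars their 95% intervals. The 4 genes that rose are red, the gene that fell is blue, and the class II bars are wide and cross 0.

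Levels within the set spanned a wide range. On the deposited TPM scale, which is per length and allows genes to be set side by side, 32 genes averaged at least 1 TPM over all libraries and 17 at least 100 TPM. The light chain gene B2m was the most abundant, at 10290 ± 319 TPM in knockout-labelled libraries and 9279 ± 621 TPM in controls (SD, n = 5 each). The classical heavy chain genes followed, H2-K1 at 3884 ± 171 TPM in knockout-labelled libraries and 3411 ± 248 TPM in controls, and H2-D1 at 2742 ± 145 TPM in knockout-labelled libraries and 2485 ± 91.2 TPM in controls. Next came H2-T23 and H2-Q4, and only then the most abundant class II gene, Cd74, at 408 ± 99.6 TPM in knockout-labelled libraries and 410.3 ± 79.2 TPM in controls. The regulators stood low: Nlrc5 at 17.5 ± 1.97 TPM in knockout-labelled libraries and 14.98 ± 1.17 TPM in controls, and Ciita at 1.45 ± 0.269 TPM in knockout-labelled libraries and 1.12 ± 0.209 TPM in controls.

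**Figure D2:**
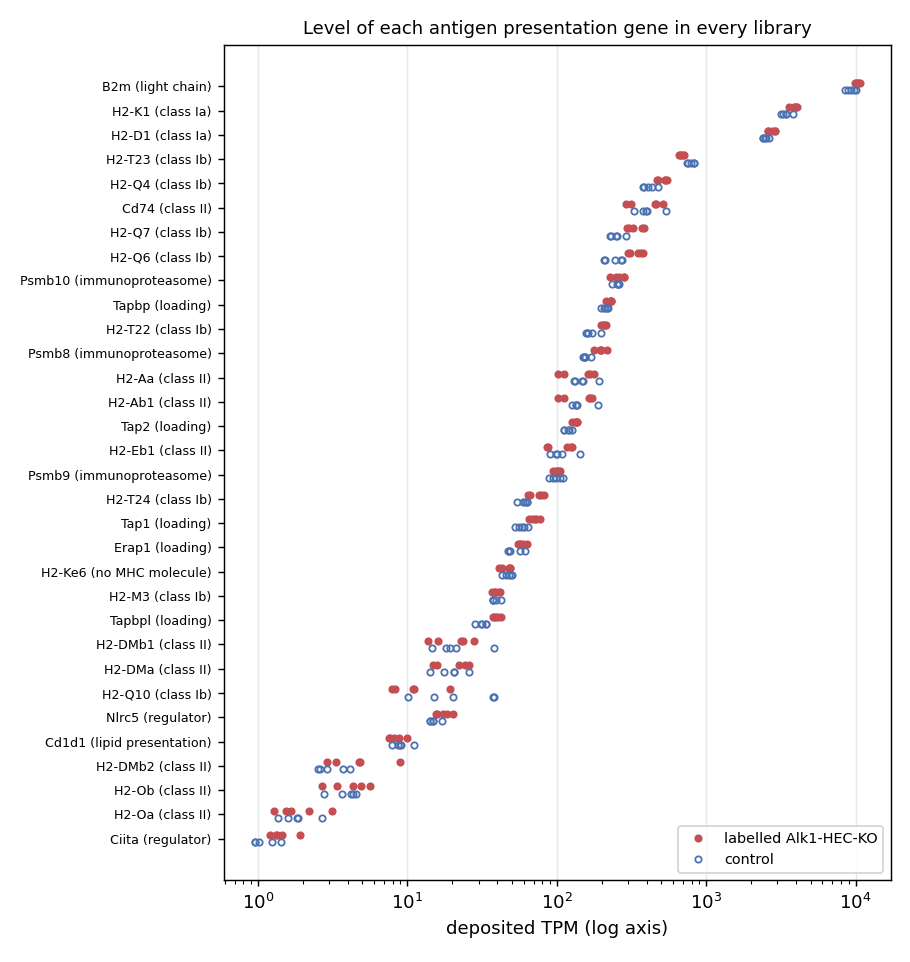
Deposited TPM of the 32 antigen presentation genes that averaged at least 1 TPM, in every library (horizontal log axis). Filled red points are the 5 knockout-labelled libraries and open blue points the 5 controls. B2m, H2-K1 and H2-D1 lie above all other genes in every library, Cd74, H2-Aa, H2-Ab1 and H2-Eb1 spread more widely than H2-K1 and H2-D1, H2-Q10 spreads widely too, and H2-T23 is the gene near the top whose red points all lie to the left of the blue ones.

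Heavy chains of the classical class Ia, H2-K1 and H2-D1, which present most peptides to CD8 T cells, did not pass the test. H2-K1 (ENSMUSG00000061232.16, chromosome 17 from 33996017 to 34000347, minus strand, GRCm38) had 2220, 1931, 2052, 2170 and 2036 CPM in knockout-labelled libraries 1 to 5, against 1832, 1776, 1895, 2229 and 1713 CPM in controls 1 to 5. Control 4 exceeded every knockout-labelled library and the groups overlapped (log2 fold change 0.14 ± 0.07 SE, edgeR adjusted p = 0.222). Without control 4 the difference was 0.21 and passed (adjusted p = 0.042). H2-D1 (chromosome 17 from 35262730 to 35267499, plus strand) had 3217, 2847, 2885, 3142 and 3082 CPM in knockout-labelled libraries, against 2737, 2921, 2972, 3400 and 2746 CPM in controls. Its groups overlapped over most of their range (0.04 ± 0.07, adjusted p = 0.759, 95% interval -0.10 to 0.18).

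Among the non-classical class Ib heavy chains, which are less polymorphic and serve more specialised recognition, 10 of 22 were tested, 2 rose, 1 fell and 7 did not pass. The called share was 30.0%, against 19.7% of all genes tested. Of the 3 calls, the 2 of genes that rose are not separate observations, as described below. H2-Q6 and H2-Q7, neighbours in the Q region that encode Qa-2 molecules, rose. H2-Q6 (ENSMUSG00000073409.12, chromosome 17 from 35424850 to 35430055, plus strand) had 442, 353, 348, 439 and 391 CPM in knockout-labelled libraries 1 to 5, against 308, 299, 269, 369.9 and 251 CPM in controls. Control 4 reached above the lowest knockout-labelled libraries, and the other controls lay below all of them (0.40 ± 0.11, 1.32-fold, adjusted p = 0.0201). H2-Q7 (ENSMUSG00000060550.16, chromosome 17 from 35439155 to 35443773, plus strand) had 376, 279.5, 286, 347 and 302 CPM in knockout-labelled libraries, against 236, 236, 243, 289 and 216 CPM in controls, with control 4 again the only control among them (0.38 ± 0.10, 1.3-fold, adjusted p = 0.0137). H2-Q4 had 589, 497, 517, 589 and 553 CPM in knockout-labelled libraries and 505, 462, 459.7, 558 and 423 CPM in controls, and did not pass (0.19 ± 0.08, adjusted p = 0.114).

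The Q genes share much sequence. Of all words of 31 bases, the length that kallisto matches by default, in the annotated transcripts of H2-Q6, 51.8% also occurred in another gene, as did 39.2% of those of H2-Q7 and 53.0% of those of H2-Q4, so the split of reads between them is uncertain. Summed over the 8 Q genes and Q pseudogenes, the level was 1302 ± 133 CPM in knockout-labelled libraries and 1069 ± 132 CPM in controls, and the sum passed (0.28 ± 0.09, adjusted p = 0.0481; SD, n = 5 each). With transcript length offsets H2-Q7 no longer passed (adjusted p = 0.0918). Because of the shared words, the fold changes of H2-Q6 and H2-Q7 cannot be counted as separate observations.

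H2-T23 was the antigen presentation gene that fell. It encodes the heavy chain of Qa-1, which carries leader peptides of other class I molecules and is the ligand of the NKG2A receptor of NK and CD8 T cells. H2-T23 (ENSMUSG00000067212.8, chromosome 17 from 36029773 to 36032855, minus strand) had 573, 517, 547, 575 and 513 CPM in knockout-labelled libraries 1 to 5, against 627, 693, 681, 764 and 607 CPM in controls 1 to 5. Every knockout-labelled library lay below every control (-0.31 ± 0.07, 1.24-fold lower, 95% interval -0.44 to -0.17, edgeR adjusted p = 0.00701). The call held in all 23 alternatives, with adjusted p at most 0.0188. Of its words 25.8% occurred in another gene, 12.4% in the pseudogene H2-T-ps, and the sum with that pseudogene gave the same difference (-0.31 ± 0.07, adjusted p = 0.00692). Of the summed heavy chain TPM, H2-T23 made up 7.73% in knockout-labelled libraries and 10.01% in controls. H2-K1 made up 44.0% in knockout-labelled libraries and 43.2% in controls.

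**Figure D3:**
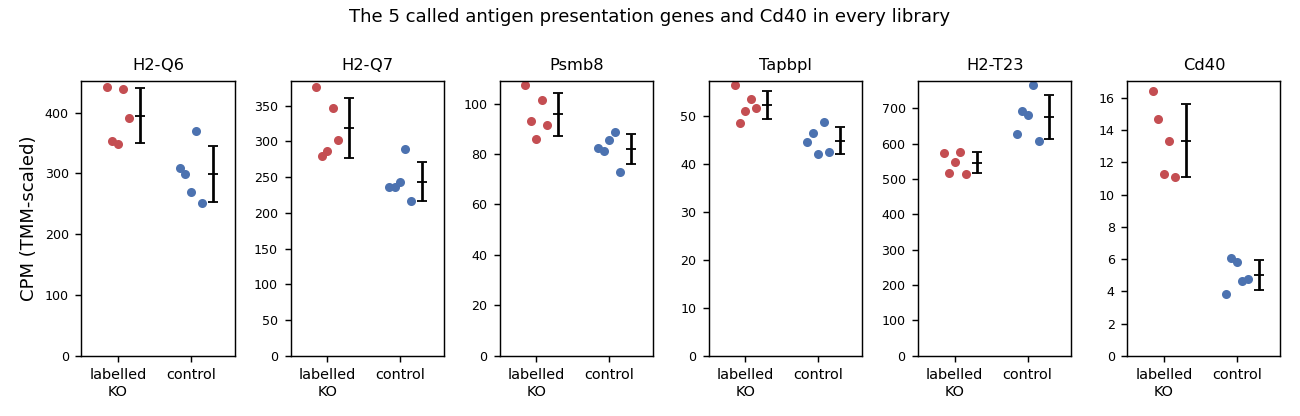
CPM of the 5 antigen presentation genes that passed the test and of Cd40, a costimulatory receptor, in every library (vertical axes start at 0). Red points are the 5 knockout-labelled libraries, blue points the 5 controls, and black bars the mean ± SD. The groups of H2-T23 and Cd40 do not overlap, while those of H2-Q6, H2-Q7, Psmb8 and Tapbpl do.

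The other tested class Ib genes did not pass. H2-T22, a ligand of some gamma-delta T cell receptors, had 199 ± 7.73 CPM in knockout-labelled libraries and 175 ± 16.8 CPM in controls (0.18 ± 0.07, adjusted p = 0.0681), and 67.4% of its words were shared, mostly with H2-T10. H2-T24 stood at 0.16 ± 0.08, and H2-M3, which presents formylated peptides, at -0.08 ± 0.06. H2-Q10 encodes a secreted heavy chain known as a product of hepatocytes. It had 23.2, 12.8, 11.8, 13.4 and 11.1 CPM in knockout-labelled libraries, against 16.5, 35.2, 21.9, 38.1 and 13.0 CPM in controls (-0.79 ± 0.34, adjusted p = 0.149). The 8 hepatocyte markers summed to 679, 950.2, 476, 541 and 409.9 CPM in knockout-labelled libraries and to 632, 1390, 646, 1401 and 400.3 CPM in controls. Of the 8, 1 was lower (Cyp2e1) and 7 did not pass (12.5% called, against 19.7% of all genes tested). Controls 2 and 4 were highest for H2-Q10 and for the hepatocyte sum, and the part of hepatocyte RNA in the H2-Q10 values was not tested. H2-Q2 and H2-M2 averaged under 1 TPM.

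The 12 genes that were not tested were all class Ib: H2-Q1, H2-T3, H2-M1, H2-M5, H2-M9, H2-M10.1 to H2-M10.6 and H2-M11. For 6 of them no count was seen in any library, which allows up to 3 counts or 0.128 CPM in the smallest library, and the highest value of the other 6 was 12.9 counts in 1 library. Several genes of the M region are known for expression in vomeronasal neurons, and they stood at or near 0 here.

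Promoter sequences of genes from both branches are shown to set the motifs of heavy chain, light chain and class II genes side by side. RefSeq gave a window of 300 bases, from 250 before to 50 after the gene start, for 38 of the 47 genes (GRCm38.p6). Both strands were searched for the core of the interferon-stimulated response element (ISRE; GAAANNGAA, and GAANNGAAA, a second form added after these sequences were read), for CCAAT, for the gamma-activated site TTCNNNGAA and for the NF-kappaB consensus. The windows below run in the direction of the gene, and capitals mark either ISRE form, CCAAT or its reverse complement, and the NF-kappaB consensus. They are those of H2-K1 (chr17:34000284-34000583, minus strand), H2-Q6 (chr17:35424600-35424899, plus strand), H2-T23 (chr17:36032652-36032951, minus strand), B2m (chr2:122147437-122147736, plus strand) and H2-Aa (chr17:34287774-34288073, minus strand).
H2-K1: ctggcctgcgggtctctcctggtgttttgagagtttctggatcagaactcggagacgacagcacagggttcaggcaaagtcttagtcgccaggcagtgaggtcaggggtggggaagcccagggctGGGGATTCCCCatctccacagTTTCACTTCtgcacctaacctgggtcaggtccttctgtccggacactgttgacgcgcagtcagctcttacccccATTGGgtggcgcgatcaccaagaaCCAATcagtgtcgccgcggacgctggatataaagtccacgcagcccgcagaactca
H2-Q6: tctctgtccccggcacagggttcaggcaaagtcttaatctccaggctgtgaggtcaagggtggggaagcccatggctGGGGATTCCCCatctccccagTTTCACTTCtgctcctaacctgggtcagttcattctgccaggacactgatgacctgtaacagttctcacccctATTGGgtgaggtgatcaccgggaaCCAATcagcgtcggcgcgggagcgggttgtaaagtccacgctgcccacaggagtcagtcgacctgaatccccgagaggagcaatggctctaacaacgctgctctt
H2-T23: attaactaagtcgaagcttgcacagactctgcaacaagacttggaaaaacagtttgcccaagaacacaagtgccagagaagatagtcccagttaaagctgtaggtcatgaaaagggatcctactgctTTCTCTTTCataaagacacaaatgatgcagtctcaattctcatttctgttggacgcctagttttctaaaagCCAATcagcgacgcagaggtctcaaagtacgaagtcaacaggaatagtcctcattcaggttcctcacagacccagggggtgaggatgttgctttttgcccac
B2m: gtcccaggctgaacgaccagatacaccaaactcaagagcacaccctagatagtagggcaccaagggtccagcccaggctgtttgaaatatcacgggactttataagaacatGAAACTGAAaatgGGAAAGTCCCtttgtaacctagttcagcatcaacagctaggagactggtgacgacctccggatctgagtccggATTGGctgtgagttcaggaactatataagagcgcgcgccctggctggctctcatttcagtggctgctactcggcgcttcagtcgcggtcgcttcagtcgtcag
H2-Aa: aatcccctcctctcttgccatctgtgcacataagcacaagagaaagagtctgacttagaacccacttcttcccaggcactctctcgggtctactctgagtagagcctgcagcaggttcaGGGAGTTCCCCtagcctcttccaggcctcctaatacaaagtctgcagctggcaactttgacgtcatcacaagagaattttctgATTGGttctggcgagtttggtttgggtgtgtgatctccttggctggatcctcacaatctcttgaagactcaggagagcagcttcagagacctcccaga

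The first ISRE form, GAAANNGAA, stood in 2 of the 11 windows of tested heavy chain genes (H2-T22 and H2-T23), in 0 of 11 windows of heavy chain genes with too few counts and in 0 of 8 windows of class II genes, against 8.56% of all 32851 windows. The second form, GAANNGAAA, stood in 8 of 11, 0 of 11 and 0 of 8 windows of the same groups, among them H2-K1, H2-D1, H2-Q6 and H2-Q7, against 7.52% of all windows. Since that form was picked from these windows, its count is a description of them and supports nothing. H2-M2, tested at under 1 TPM, held the second form, and H2-Q2, tested at a similar level, held neither. The NF-kappaB consensus stood in 8 of 11, 0 of 11 and 1 of 8 windows of the same groups, against 8.46% of all windows, and the H2-T23 window held none. CCAAT was frequent in each group, in 10 of 11, 9 of 11 and 7 of 8 windows, against 37.4% of all. TTCNNNGAA stood in 1 window of each group (8.3% of all windows). The heavy chain genes are relatives that arose by duplication, so their windows are not independent, and a match of letters is a description and not a binding site. In the printed windows of H2-K1 and H2-Q6 the NF-kappaB and ISRE matches lie close together in the same order, upstream of both CCAAT matches.

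B2m, whose product is the light chain of every class I molecule, did not pass. B2m (ENSMUSG00000060802.8, chromosome 2 from 122147686 to 122153083, plus strand) had 4308, 3998, 4192, 4567 and 4146 CPM in knockout-labelled libraries, against 3795, 3867, 3918, 4820 and 4130 CPM in controls. The groups overlapped (0.05 ± 0.07, adjusted p = 0.712, 95% interval -0.10 to 0.19), and none of its words occurred in another gene. Summed class I heavy chains reached 7249 ± 427 CPM in knockout-labelled libraries and 6848 ± 657 CPM in controls (SD, n = 5 each), with ranges of 6739 to 7769 and 6233 to 7959 CPM that overlap. On the TPM scale the sums were 8554 to 9291 in knockout-labelled libraries and 7402 to 8553 in controls, ranges that meet without overlapping. TPM has no scaling for composition, and the median log2 fold change of all genes on log2(TPM + 1) was 0.08.

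Of the 5 genes that transport, trim and load peptides, Tapbpl rose and 4 did not pass (20.0% called, near the 19.7% of all genes tested). Tapbpl, a relative of tapasin that edits the peptides of class I molecules outside the loading complex, had 56.5, 48.5, 51.1, 53.4 and 51.7 CPM in knockout-labelled libraries, against 44.4, 46.4, 42.1, 48.6 and 42.4 CPM in controls. Only the lowest knockout-labelled library, number 2, fell below the highest control, number 4 (0.22 ± 0.06, 1.17-fold, adjusted p = 0.0177, and 0.0505 without knockout-labelled library 1). Tapbp, tapasin itself, had 341, 339, 314, 346 and 331 CPM in knockout-labelled libraries and 324, 343, 331, 368 and 314 CPM in controls (-0.01 ± 0.05, adjusted p = 0.952). Tap2, a subunit of the peptide transporter, had 211, 202, 188, 206 and 199 CPM in knockout-labelled libraries and 178, 199, 189, 209 and 172 CPM in controls (0.08 ± 0.06, adjusted p = 0.37). Its partner Tap1 stood at 0.15 ± 0.08 (adjusted p = 0.18). Erap1, the aminopeptidase that trims peptides in the endoplasmic reticulum, stood at -0.01 ± 0.05 (adjusted p = 0.958). The 95% intervals of Tapbp and Erap1 lay within -0.11 and 0.10.

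Of the 3 immunoproteasome subunits, which replace the constitutive catalytic subunits, 1 rose and 2 did not pass. That is 33.3% called, by 1 gene, against 19.7% of all genes tested. The differences between the subunits were not tested. Psmb8 (ENSMUSG00000024338.15, chromosome 17 from 34197721 to 34201454, plus strand) had 107, 93.0, 85.9, 101 and 91.4 CPM in knockout-labelled libraries, against 82.3, 81.2, 85.7, 88.6 and 72.7 CPM in controls. Knockout-labelled library 3 lay below the highest control, and the other 4 lay above all controls (0.22 ± 0.07, 1.17-fold, adjusted p = 0.0408). This call ended in 8 of the 23 alternatives, 7 of which left out a single library, with adjusted p up to 0.12. Psmb10 had 114, 100, 98.3, 108 and 102 CPM in knockout-labelled libraries and 107, 108, 110.3, 117 and 96.4 CPM in controls (-0.05 ± 0.06, adjusted p = 0.66). Psmb9 stood at 64.1 ± 3.83 CPM in knockout-labelled libraries and 66.3 ± 8.07 CPM in controls (-0.05 ± 0.08, adjusted p = 0.717). Psmb9 and Tap1 are transcribed away from each other, and their RefSeq promoter windows share 275 bases. None of the constitutive counterparts Psmb5, Psmb6 and Psmb7 passed, with log2 fold changes of -0.06 to 0.05.

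Nlrc5, the class I transactivator, did not pass. It had 47.7, 35.1, 33.5, 37.2 and 34.5 CPM in knockout-labelled libraries, against 41.7, 30.0, 27.8, 38.3 and 29.8 CPM in controls (0.17 ± 0.13, adjusted p = 0.428). Library 1 was the highest of both groups. Ciita, the class II transactivator, had 4.62, 6.41, 4.23, 4.12 and 4.43 CPM in knockout-labelled libraries, against 3.91, 3.52, 3.53, 3.06 and 4.01 CPM in controls. The groups did not overlap, although the highest control, 4.01 CPM, came close to the lowest knockout-labelled library, 4.12 CPM, and the difference did not pass (0.40 ± 0.15, adjusted p = 0.0792, and 0.0664 to 0.273 in the alternatives).

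None of the class II genes passed with edgeR, and those of at least 10 CPM varied more among libraries of a group than the class I heavy chains other than H2-Q10. Cd74 had 304, 334, 192, 314 and 199 CPM in knockout-labelled libraries 1 to 5, against 248, 278, 402, 255 and 269 CPM in controls 1 to 5 (-0.11 ± 0.20, adjusted p = 0.751, 95% interval -0.50 to 0.27). H2-Aa, the alpha chain of I-A, had 94.7, 101, 64.2, 99.7 and 56.4 CPM in knockout-labelled libraries, against 84.1, 80.1, 125, 88.4 and 87.7 CPM in controls (-0.16 ± 0.19, adjusted p = 0.625). In both genes knockout-labelled libraries 3 and 5 were the lowest of all 10 and control 3 was the highest. H2-Ab1 and H2-Eb1, the beta chains of I-A and I-E, stood at -0.12 ± 0.20 and -0.13 ± 0.17. H2-DMa and H2-DMb1, which exchange peptides on class II, stood at -0.02 ± 0.21 and -0.21 ± 0.27. H2-Oa and H2-Ob, which restrain that exchange, stood at -0.01 ± 0.27 and 0.23 ± 0.20, H2-DMb2 at 0.53 ± 0.28 and H2-Eb2 at 0.06 ± 0.35. For genes of at least 10 CPM the median coefficient of variation over 6 class II genes was 25.4% in knockout-labelled libraries and 21.6% in controls. Over 10 class I heavy chain genes it was 7.09% in knockout-labelled libraries and 10.1% in controls, with H2-Q10 above every class II gene at 34.5% in knockout-labelled libraries and 44.9% in controls.

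The sum of the 10 class II genes put the libraries in a similar order as the sum of macrophage and Kupffer cell markers, but not in proportion. It was 602, 649.8, 396, 626 and 382 CPM in knockout-labelled libraries 1 to 5, and 502, 535, 789.8, 522 and 532 CPM in controls 1 to 5. The 12 macrophage markers summed to 1773, 1774, 1072, 1783 and 744 CPM in knockout-labelled libraries, against 961, 1458, 2670, 860.2 and 1456 CPM in controls. Control 3 was the highest and knockout-labelled library 5 the lowest of the 10 in both sums. Per 100 CPM of macrophage markers, class II ran from 29.6 CPM in control 3 to 60.7 CPM in control 4. None of the 12 macrophage markers passed with edgeR (Marco alone had an unadjusted p under 0.05), and all were detected, so the captured cells were not free of macrophage RNA. Its part in the class II values was not tested. Dendritic cell markers summed to 183 to 225 CPM in knockout-labelled libraries and 181 to 233 CPM in controls, with 1 of 10 higher (Clec9a). Most of that sum was Zbtb46, at 144 CPM on average in knockout-labelled libraries and 155 CPM in controls. Clec9a followed, at 39.95 CPM in knockout-labelled libraries and 26.3 CPM in controls. Of the 10 log2 fold changes 8 were positive and 2 negative, with a median of 0.40, so the sum does not stand for the list. The B cell markers summed to 26.3 to 57.0 CPM in knockout-labelled libraries and 24.9 to 35.5 CPM in controls, with 1 of 8 lower (Blk). T and NK cell markers summed to 16.0 to 37.0 CPM in knockout-labelled libraries and 21.9 to 29.3 CPM in controls, with 3 of 9 lower (Cd3d, Cd4 and Trbc2). Knockout-labelled library 2 had the highest Ciita and H2-DMb2, and also the highest B cell sum and the highest T and NK cell sum. Nkg7 at 14.7 CPM, Klrb1c at 8.63 CPM and Ncr1 at 5.05 CPM were the highest of all 10 libraries there, while Cd3e, Cd3g and Trbc2 were not. The part of B, T and NK cells in the Ciita and H2-DMb2 values was not tested.

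**Figure D4:**
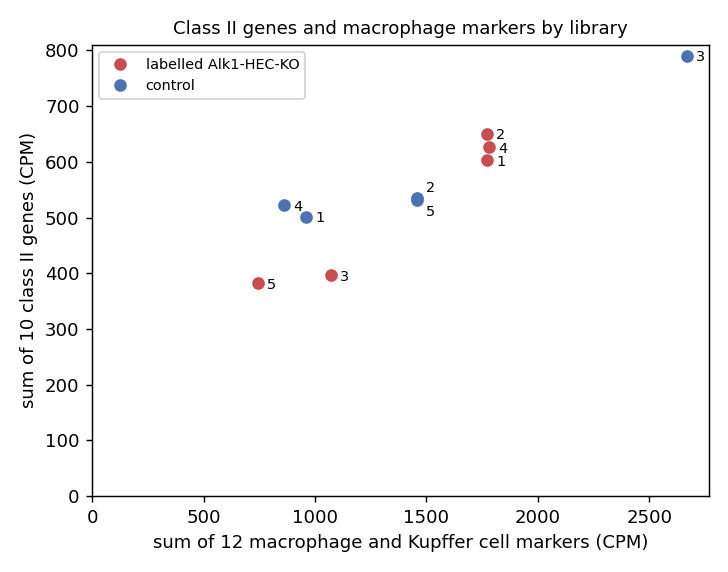
Sum of the 10 class II genes (vertical axis, CPM) against the sum of 12 macrophage and Kupffer cell markers (horizontal axis, CPM), 1 point per library, numbered by replicate. Red points are the 5 knockout-labelled libraries and blue points the 5 controls. Control 3 is at the top right and knockout-labelled library 5 at the bottom left, and the groups are interspersed.

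Set against each other, the class I heavy chains and the class II alpha and beta chains (H2-Aa, H2-Ab1, H2-Eb1 and H2-Eb2) gave a TPM ratio of 20.5, 17.9, 28.0, 19.9 and 29.8 in knockout-labelled libraries 1 to 5, and of 20.6, 21.2, 14.6, 24.6 and 19.2 in controls 1 to 5. The mean was 23.2 ± 5.32 in knockout-labelled libraries and 20.0 ± 3.62 in controls (SD, n = 5 each), and the ranges overlapped. Ratios were highest in knockout-labelled libraries 3 and 5, which had the lowest class II sums, and lowest in control 3, which had the highest.

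H2-Ke6, the dehydrogenase gene within the complex, had 19.9 ± 1.46 CPM in knockout-labelled libraries and 21.7 ± 0.935 CPM in controls and did not pass (-0.12 ± 0.06, adjusted p = 0.21), and 76.1% of its words occurred in another gene. Outside the complex, Cd1d1, which presents lipids to NKT cells, had 8.41 ± 1.15 CPM in knockout-labelled libraries and 10.2 ± 1.12 CPM in controls and did not pass (-0.28 ± 0.11, adjusted p = 0.108, and 0.0424 without knockout-labelled library 2). Of 7 tested genes for MHC-like molecules outside H2, 4 fell, 1 rose and 2 did not pass (71.4% called, against 19.7% of all genes tested). Fcgrt, the heavy chain of the neonatal Fc receptor that recycles IgG and albumin, had 966, 966, 1005, 1044 and 932 CPM in knockout-labelled libraries, against 1145, 1335, 1250, 1390 and 1130 CPM in controls, with no overlap (-0.35 ± 0.07, adjusted p = 0.00296). Mr1, which presents vitamin metabolites to MAIT cells, fell by 0.41 ± 0.10 on the log2 scale, and Procr, the endothelial protein C receptor, fell by 0.43 ± 0.09. Hfe, a regulator of iron uptake, fell by 0.21 ± 0.05 (adjusted p = 0.0161). Mill2 rose by 0.30 ± 0.09 (adjusted p = 0.0406). Among the genes of this list that fell, the products of Fcgrt, Mr1 and Hfe pair with beta-2-microglobulin, as class I heavy chains do. Class I heavy chain genes themselves moved both ways, since H2-Q6 and H2-Q7 rose and H2-T23 fell. B2m did not pass, and a relation between these values was not tested.

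Partners of peptide supply for class I, a list of 10 genes, gave no call with edgeR, against 3 with an unadjusted p under 0.05. Psme2, a subunit of the interferon-induced proteasome activator, stood at 0.18 ± 0.07 (adjusted p = 0.076) and Lnpep, an endosomal trimming aminopeptidase, at -0.15 ± 0.06 (adjusted p = 0.103). Of 9 genes for class II processing and traffic 2 fell, and the called share of 22.2% was near the 19.7% of all genes tested. Lgmn, an endosomal asparagine protease, had 852, 747, 795, 883 and 726 CPM in knockout-labelled libraries, against 939.9, 1152, 1184, 1169 and 1095 CPM in controls, and Ctsl, cathepsin L, averaged 1131 ± 114 CPM in knockout-labelled libraries and 1450 ± 75.5 CPM in controls. Neither pair of groups overlapped (-0.47 ± 0.08, adjusted p = 0.000991 for Lgmn, and -0.36 ± 0.07, adjusted p = 0.00433 for Ctsl). Both proteases serve general lysosomal digestion as well. None of the 7 genes of the class II transcription complex passed, the nearest being Nfya (0.16 ± 0.06, adjusted p = 0.0594) and Rfx5 (-0.22 ± 0.08, adjusted p = 0.0778).

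Genes of interferon gamma signalling, which induces both branches, moved both ways: of 12, 2 rose, 2 fell and 8 did not pass. The called share was 33.3%, against 19.7% of all genes tested. Ifngr1, the ligand-binding receptor chain, had 158, 164, 135, 168 and 126 CPM in knockout-labelled libraries, against 93.4, 105, 116, 102 and 101 CPM in controls (0.54 ± 0.09, adjusted p = 0.000794). Irf9 rose by 0.23 ± 0.06. The receptor kinases fell, Jak1 to 1183 ± 52.1 CPM in knockout-labelled libraries, against 1519 ± 71.8 CPM in controls (-0.36 ± 0.05, adjusted p = 0.000497), and Jak2 by 0.27 ± 0.07. Irf1, which acts on Nlrc5 and class I promoters, had 162 ± 16.7 CPM in knockout-labelled libraries and 165 ± 11.8 CPM in controls (-0.02 ± 0.08, adjusted p = 0.875). Among 9 tested costimulatory and checkpoint ligands 2 rose, and the called share of 22.2% was near that of all genes. Cd40, a receptor through which T cells activate presenting cells, had 16.4, 14.7, 11.3, 13.3 and 11.1 CPM in knockout-labelled libraries, against 3.83, 6.05, 5.8, 4.63 and 4.78 CPM in controls, a 2.66-fold difference with no overlap (1.41 ± 0.15, adjusted p = 2.99e-05). Lgals9, galectin-9, averaged 296 ± 7.64 CPM in knockout-labelled libraries and 228 ± 6.47 CPM in controls (0.38 ± 0.04, adjusted p = 5.88e-05). Cd274, which encodes PD-L1, stood at 0.05 ± 0.11, and Cd80 and Cd86 at 0.28 ± 0.37 and 0.15 ± 0.29.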

How the data were processed

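RNA-seq of 10 mouse liver endothelial libraries, 5 per group, was used; the titles of the samples gave group and replicate number. Non-parenchymal cells were enriched on a density gradient and captured with CD146 beads, per the labels' protocols. The submitters' processing notes name Trim Galore 0.6.4, kallisto 0.4.6 and GRCm38.p6. Not given in the sources used here are the annotation release and the step from transcripts to genes. For every library the authors deposited kallisto's estimated counts, which can be fractional, and TPM, both per gene. Of 55385 identifiers 55144 matched GENCODE M21 by stable identifier, which gave symbols, gene types and coordinates. Promoter windows are from RefSeq, and roles were assigned from general knowledge of each gene.

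After rounding, these counts went into edgeR 4.0.16 (R 4.3.3): filterByExpr with a minimum count of 10 (15043 genes, 99.873 to 99.896% of counts), TMM factors 0.9426 to 1.0351, robust quasi-likelihood test of genotype alone, Benjamini-Hochberg adjustment over all genes tested and a threshold of 0.05. Adjusted p-values are from this test unless another is named; intervals are 1.96 SE wide on each side, and values are log2 fold changes ± SE where a difference is given. CPM used TMM-scaled library totals. The procedure was tested on simulated data. No libraries agreed within sampling noise (chi-square per degree of freedom 11.4 to 32.2 between libraries of a group).

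Values in every library are given for called genes, the 2 genes of highest mean TPM among class Ia, class Ib, class II, loading and immunoproteasome genes, Nlrc5 and Ciita. From other lists up to 6 called genes, or else the 2 with the smallest p, plus Irf1, are named, several of them by mean or difference alone. A gene that the rule takes is not reported here. H2-Q10, H2-T22, H2-M3 and other genes named beyond that rule were chosen after their values were seen. The genes and lists were chosen with earlier results of these data known. Alternatives were DESeq2 1.42.0, limma 3.58.1 (voom, and log2 TPM with a pseudocount of 1 or 0.1), other scalings, filters, no robust estimation, length offsets, the replicate number as a block, each library left out, controls 4 and 5 left out, and near-identical copies summed. The last was chosen after seeing the data. March1 and March8 were matched under those older symbols.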

Additional observations from a re-analysis of the deposited data

Results flagged for a closer look

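In 7 of 76 groups of 5 libraries examined, the gap between the most extreme library and the next exceeded 0.71 of the group's range, and chance alone gives such a gap in about 1 in 20 groups. In knockout-labelled library 1, H2-Q10 stood at 23.25 CPM, against 11.13 to 13.37 CPM in the other 4 of that group. Nlrc5 stood at 47.68 CPM in the same library, against 33.46 to 37.17 CPM in the others. In knockout-labelled library 2, Ciita stood at 6.409 CPM, against 4.121 to 4.617 CPM. Control 3 held the other 4: Cd74 at 401.5 CPM, against 247.5 to 278.5 CPM in the other controls; H2-Ab1 at 133.1 CPM, against 83.32 to 92.19 CPM; H2-Aa at 124.8 CPM, against 80.11 to 88.41 CPM; and H2-Eb1 at 81.77 CPM, against 54.05 to 57.77 CPM. These class II values belong to 1 library that also had the highest sum of macrophage markers, 2670 CPM, against 860.2 to 1458 CPM in the other controls; its part in them was not tested.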

How the results depend on the processing

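Of the 35 tested genes, 23 kept their side of the threshold in each of the 23 alternatives run on them. The number that rose, 4 as reported, was 10 with limma on log2(TPM + 1) and 10 with log2(TPM + 0.1), where H2-Q2, H2-Q4, H2-T22, H2-T24, Tap1 and Tap2 were added and the median of all genes was 0.08 and 0.10. It was 8 with near-identical copies summed, since each Q gene then takes the value of the sum: H2-Q2, H2-Q4, H2-Q10 and H2-Q1, the last not tested otherwise, were added, and H2-Q10 so turned to 0.28. Leaving out 1 library gave 2 to 7 genes that rose and 1 to 2 that fell: 2 rose without knockout-labelled library 1 (H2-Q6 and H2-Q7), 7 rose without control 4 (H2-K1, H2-Q4 and H2-T22 added), and Cd1d1 also fell without knockout-labelled library 2. With the replicate block 5 rose (H2-T22 added) and 1 fell. Same-numbered libraries correlated in their deviations at -0.196, 0.35, 0.0147, 0.108 and 0.284 for numbers 1 to 5, so the numbers were not taken to pair the samples. With library size alone 6 rose and the median of all genes moved by 0.05. Acvrl1 ranged from 0.83 to 1.01. The log2 fold change took both signs across alternatives in 15 genes that did not pass, 9 of them in the class II branch. Depth limits the genes under about 1 CPM, where a few counts decide a value.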
